A study of Mus musculus with 9 samples.

Results

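The expression profile of the proximal colon was described in 3 wild-type mice, which were all the wild-type samples among the 9 samples of the series. They were chosen by genotype label alone. Probe sets were ranked by their mean deposited signal over these 3 arrays, and the spread among the 3 mice was then measured for each probe set. The series asks how cSHMT, the cytosolic serine hydroxymethyltransferase encoded by Shmt1, shapes expression in the colon, and its other samples are 3 heterozygous and 3 mutant mice. All 9 mice were 9 weeks old and came from a line backcrossed for 10 generations to C57Bl/6. From weaning at 3 weeks, all ate AIN-93G chow lacking folate and choline, for 6 weeks according to the sample characteristics and 5 according to the growth protocol. No sex and no animals on a complete diet are named in the labels. A part of the diet in any level below cannot be told apart from the normal state of the tissue.

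The proximal colon absorbs water and salts and ferments fibre through its microbes. Its lining is a single layer of absorptive colonocytes, mucus-secreting goblet cells, hormone cells and dividing crypt cells, with immune cells in the tissue beneath and smooth muscle, nerves and fat outside. Folate carries single carbon units that cells use to make purines, thymidylate and methionine, and choline supplies methyl groups through betaine as well as the head group of phosphatidylcholine.

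Each colon was read on 1 Affymetrix array with 22690 probe sets, of which 64 are controls, so the number of arrays limits every value. The 3 wild-type arrays correlated at 0.9685 to 0.9859 over the log2 signals of the 13576 tested probe sets, that is, those whose 9-array mean reached the 40th percentile. Wild-type mouse 1 stood apart. Its beta-actin signal at the 3' end over that at the 5' end, a ratio which rises as labelled RNA is shortened, was 5.02, against 3.15 and 2.52 in mice 2 and 3. The 100 brightest probe sets of wild-type were also brighter in mouse 1 as deposited, with a mean of 9195 signal units against 6835 and 6633. Its median was lower, at 129.4 against 156.6 and 158.2. Quantile normalization over the 9 arrays removes these last differences, so means below are deposited signals and comparisons between mice are normalized log2 values. The arrays numbered 1 in the other genotypes also had the highest actin ratios of their groups, 4.45 in heterozygous and 4.84 in mutant. A probe set's brightness depends on its probes as well as on its transcript, so ranks order probe sets and not transcripts. In a bulk sample, fewer cells of a type and less RNA per cell cannot be told apart.

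The brightest gene was Spink4, a secreted protein of goblet cells, with 11720, 8229.7 and 7847.8 signal units in mice 1, 2 and 3 (mean 9266 ± 2130, SD, n = 3). Its SD on the normalized log2 scale was 0.0329, but normalization sets the top ranks of all arrays to the same values, so a small SD is partly built in. As deposited, the 100 brightest probe sets of wild-type also averaged higher in mouse 1, at 9195 against 6835 and 6633. Among the 40 brightest genes, the secreted and surface products of the lining were Dmbt1, a mucosal scavenger receptor protein, at 8700 ± 1440, Zg16, a lectin of goblet cell granules, at 8459 ± 1660, and Lypd8, a colonocyte protein that keeps bacteria from the surface, at 8213 ± 1640. Guca2a, the precursor of guanylin, read 7047 ± 1120. Agr2, which helps fold mucins, read 6992 ± 957, and Tff3, the trefoil peptide of goblet cells, read 6882 ± 1340. The heavy chain gene of immunoglobulin A, Igha, read 8900 ± 2050 and placed the product of plasma cells beside those of the epithelium.

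By class, 46 of the 100 brightest probe sets carried a ribosomal protein symbol, a class that makes up 0.924% of all probe sets. Another 7 belonged to the respiratory chain or ATP synthase (0.76% of all) and 6 to immunoglobulin genes (0.27% of all). A further 32 had other symbols and 9 had no symbol here. Only 14 of the ribosomal probe sets carry a single symbol, since their genes have many near-identical copies, and their signals cannot be assigned to one copy. Atp5d, a subunit of ATP synthase, read 8986 ± 2090, Ndufc1 of complex I read 8513 ± 1230, Cox7a2 of cytochrome c oxidase read 8211 ± 1760 and Rps29 of the small ribosomal subunit read 8678 ± 2020.

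The bright end of the profile was made of much the same probe sets in every genotype. The median SD of the 100 brightest probe sets was 0.0425 among the 3 wild-type mice, against 0.154 over all tested probe sets, but quantile normalization sets the top ranks of all arrays to the same values, so a small SD is partly built in. Of these 100, 92 were also among the 100 brightest of heterozygous colons and 93 among those of mutant colons. None of the 100 passed limma's test at an adjusted p of 0.05 in either genotype against wild-type. Over all tested probe sets that test called 3 (0.0221%) in mutant and 0 (0.0%) in heterozygous colons. At an unadjusted p under 0.05 it found 525 (3.87%) and 1087 (8.01%), and of the 100 brightest 3 and 5.

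**Figure D1:**
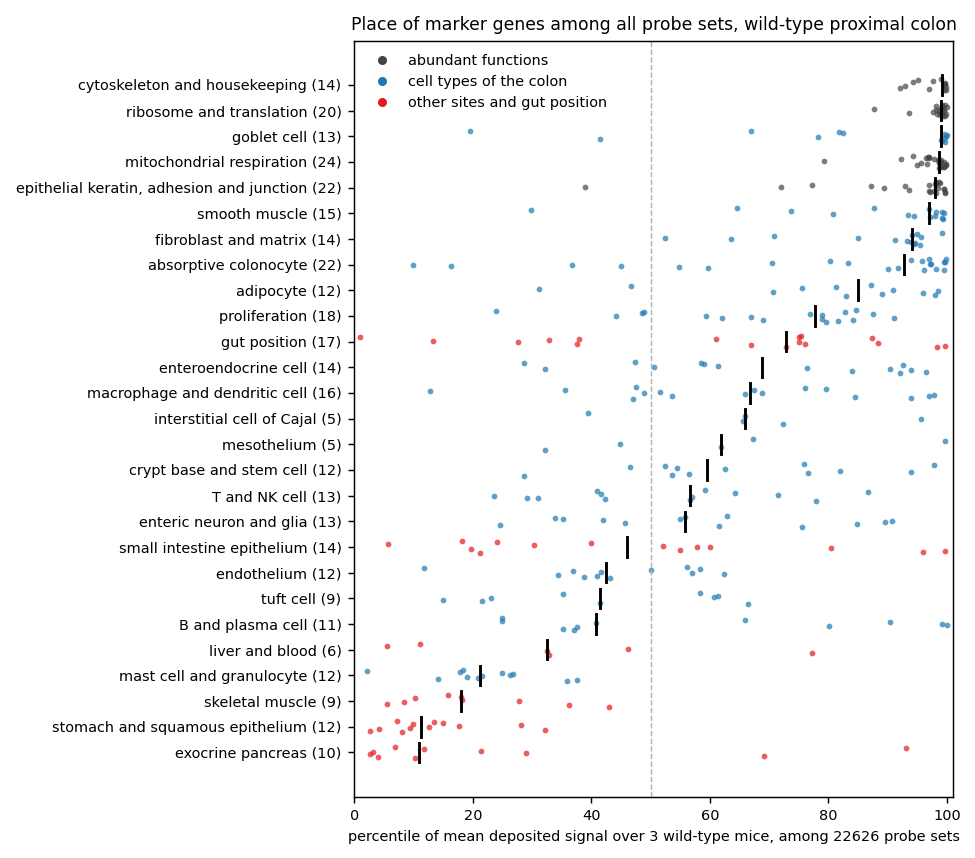
Each point is the leading probe set of 1 gene, placed on the x axis by the percentile of its mean deposited signal over the 3 wild-type mice, with gene lists on the y axis (measured genes in brackets) and a black bar at the list median. Smooth muscle genes have a median percentile of 96.9 and exocrine pancreas genes one of 11.0.

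Marker genes were taken from lists and read at each gene's leading probe set, which has the gene's highest mean over the 9 arrays. This choice raises the place of genes with several probe sets. The 13 measured goblet cell genes had a median signal of 5584, and 7 of them lay in the top decile of all probe sets. Retnlb, a secreted goblet cell protein, read 6188 ± 806. Absorptive colonocyte genes (22 measured) had a median of 2264, with Ceacam1 at 6388 ± 1230 and the carbonic anhydrases Car1 at 6265 ± 980 and Car2 at 4462 ± 295. The labelled tissue thus carried the defining transcripts of colon epithelium. Hnf4a, a gut epithelial transcription factor, read 6703 ± 1430 and Cdx2, the factor that sets intestinal identity, read 4731 ± 120.

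Hormone cells were visible through Chgb and Chga, granule proteins, at 3350 ± 711 and 2109 ± 289, and through the hormones Pyy at 2508 ± 447, Nts at 2201 ± 200 and Sst at 1781 ± 120. Tuft cell genes were dim, with a median of 84.3 over 9 genes and Dclk1 at 388.4 ± 49.9. Of crypt base genes, Prom1 read 4276 ± 1010 and Sox9 read 2503 ± 471, and the median of the 12 was 265.2. Dividing cells were marked by Pcna, the sliding clamp of DNA replication, at 1910 ± 43.6 and by Birc5, a mitotic protein, at 1434 ± 232.

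The muscle coat was bright, with a median of 3642 over 15 smooth muscle genes, led by Mylk, the kinase of myosin light chain, at 6368 ± 1180 and by Acta2 at 6114 ± 554. Of fibroblast and matrix genes, Vim read 5875 ± 889 and Col1a1 2982 ± 397. Adipocyte genes were also well represented: Car3 read 4848 ± 1390, Fabp4, which binds fatty acids, 4356 ± 742 and Retn, which encodes resistin, 1611 ± 246. Nerve genes included Snap25 of the synapse at 1846 ± 202 and the gut neuropeptides Tac1 at 1672 ± 147 and Vip at 1168 ± 175.

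Immune genes were uneven. Plasma cell products were among the brightest, with Igha as above and Jchain, which joins immunoglobulin A into dimers, at 5823 ± 1650. The B cell genes Ms4a1, Cd79a and Cd22 lay under the limit for testing. Ighm, of the same B and plasma cell list, did not, with wild-type means from 115.6 ± 33.9 to 1820 ± 529 over its tested probe sets. Of macrophage genes, C1qb, part of complement C1q, read 4237 ± 1180 and Csf1r, their growth factor receptor, 2501 ± 573. None of the 12 mast cell and granulocyte genes reached the limit for testing, and their highest mean was 62.5 ± 46.7, in Mcpt2.

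Markers of other sites were mostly dim, and those of the small intestine were mixed. The highest of 27 control signals that should find no target was 9.9 in the wild-type arrays. Of 12 stomach and squamous genes, 9 were at or under it in all 3 mice, and of 10 exocrine pancreas genes 5 were. The same held for 3 of 9 skeletal muscle genes, 2 of 6 liver and blood genes and 1 of 14 small intestine genes. The exceptions in the pancreas list were Clps, colipase, at 2294 ± 399 and Cela1, an elastase, at 455.6 ± 72. In the list of small intestine genes, Fabp2, the intestinal fatty acid binding protein, at 7222 ± 1310 and Fabp6, the ileal bile acid binding protein, at 3106 ± 59.5 were bright, while the median of the 14 genes was 123.2 and 7 of them lay above the median of all probe sets. Ttr, transthyretin, was the brightest of the liver and blood list at 730.4 ± 145.

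**Figure D2:**
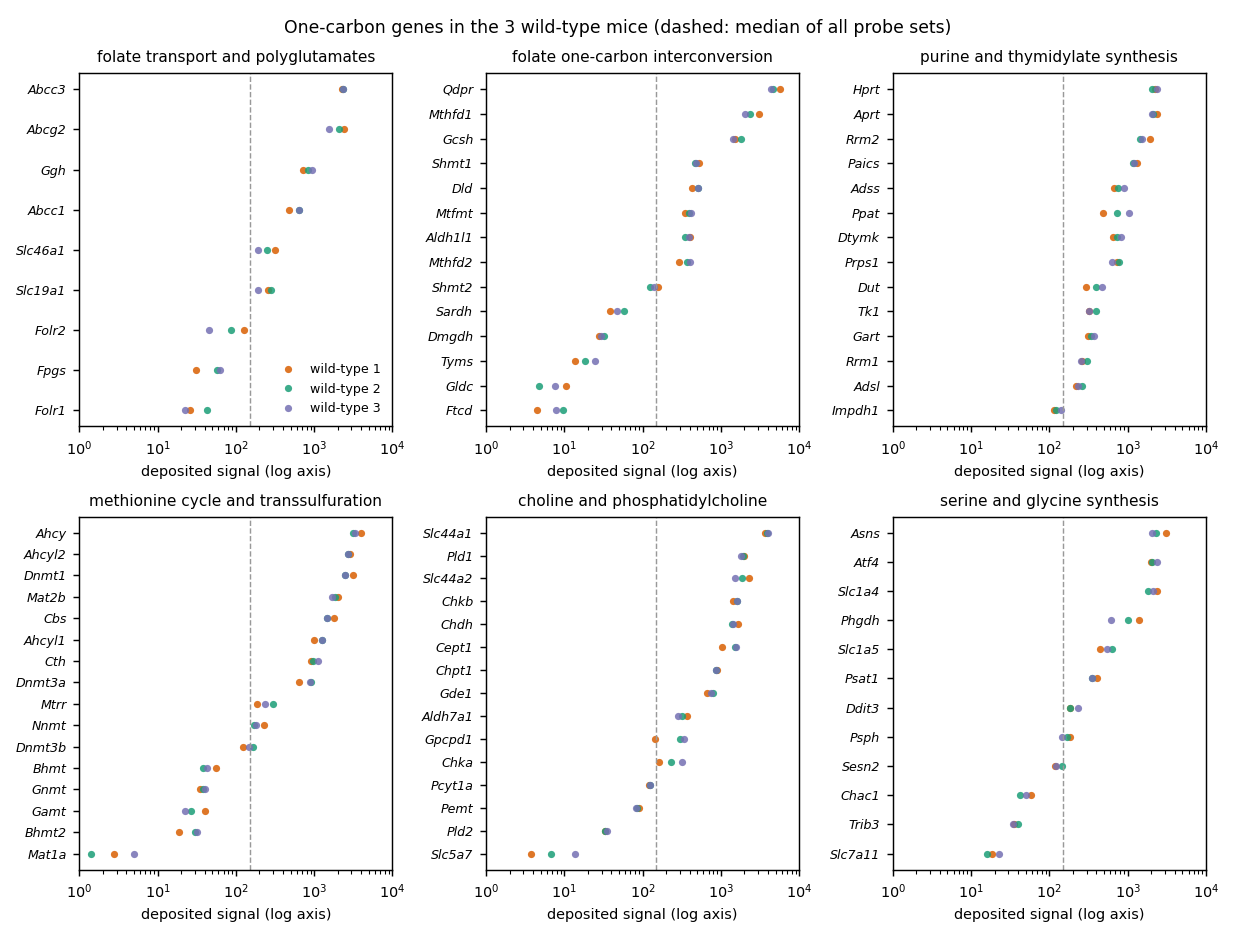
Deposited signal (log axis) of the leading probe set of each one-carbon gene in wild-type mice 1, 2 and 3, in 6 panels by function, with the median of all probe sets, 150.6, dashed. Phgdh and Folr2 are the genes whose 3 points are most spread among those tested.

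Of 97 genes of folate, methionine, choline and serine metabolism, 80 were named on the array, and 56 of these had a leading probe set above the median of all probe sets. That median also counts the dimmer probe sets of each gene, so choosing the leading one partly builds in a count above it. The share for leading probe sets of all genes was not measured. In folate handling the exporters were bright and the classic receptor was dim. Abcc3 and Abcg2, transporters that can export folates, read 2307 ± 31.5 and 2017 ± 432. The intestinal proton-coupled folate carrier Slc46a1 read 253.6 ± 59.6 and the reduced folate carrier Slc19a1 243.1 ± 44.7. Folr1, the folate receptor of epithelia, read 30.5 ± 10.6. Ggh, which trims the glutamate tail of folates, read 829.5 ± 112, and Fpgs, which adds it, read 50.47 ± 16.7.

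Among the enzymes that pass carbon units between folates, Mthfd1, the cytoplasmic enzyme with 3 activities, read 2464 ± 517. Qdpr, which recycles a folate-like cofactor, was the brightest of this list at 4867 ± 750, followed by Mthfd1 and by Gcsh of the glycine cleavage system at 1575 ± 199. Shmt1 has 4 probe sets. The leading one read 529.3, 463.3 and 487.9 in mice 1, 2 and 3, a normalized SD of 0.197. Another was brighter in wild-type, at 564.3, 575.7 and 644.1 (SD 0.0727), and the others read 332.4, 368.9 and 305.9 and, under the limit for testing, 22.4, 27 and 23. No probe set of Shmt1 thus varied much among the wild-type mice. Shmt2, the mitochondrial counterpart, read 158.3, 122.6 and 140.9. Several enzymes known from liver were dim: Gldc at 7.667 ± 2.85 and Ftcd at 7.333 ± 2.63 lay under the highest no-target control, 9.9, and Dmgdh read 29.8 ± 2.55. Aldh1l1, a folate dehydrogenase also known from liver, was not, at 380 ± 28.2. Tyms, thymidylate synthase, was listed at 13.8, 18.4 and 24.5.

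Of the other genes of purine and thymidylate supply, a list that does not hold Tyms, 13 of 14 lay above the median of all probe sets and all 14 were tested. The limit given above for leading probe sets holds for this count too. The salvage enzymes Hprt and Aprt, which rebuild nucleotides from bases, read 2225 ± 140 and 2170 ± 163. Rrm2, the subunit of ribonucleotide reductase made in dividing cells, read 1612 ± 257. Paics, of de novo purine synthesis, read 1231 ± 72. Ppat, which starts that route, was the most spread, with 485.2, 733.6 and 1028 in mice 1, 2 and 3 (normalized SD 0.451).

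In the methionine cycle, Ahcy, which clears S-adenosylhomocysteine, read 3483 ± 392 and Mat2b, the regulatory subunit of the enzyme that makes S-adenosylmethionine, 1841 ± 166. Homocysteine can leave the cycle through Cbs, at 1559 ± 186, and Cth, at 1001 ± 118. The liver's betaine route was dim, with Bhmt at 45.2 ± 8.7 and Bhmt2 at 26.7 ± 7.08, and Mat1a, the liver form of the methionine adenosyltransferase, was at 3.067 ± 1.81, under the no-target control. Dnmt1, the maintenance DNA methyltransferase, read 2699 ± 350.

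Choline genes had a median of 738.8 over 15. The choline transporters Slc44a1 and Slc44a2 read 3864 ± 186 and 1889 ± 397, whereas Slc5a7, the transporter of cholinergic nerves, read 8.1 ± 5.14. Chdh, which oxidizes choline towards betaine, read 1480 ± 158. Pemt, the methylation route to phosphatidylcholine that is known from liver, read 85.77 ± 3.97. Of genes that respond to a lack of amino acids, Asns, asparagine synthetase, read 2480 ± 580 and the factor Atf4 2133 ± 201, while Chac1 at 50.57 ± 7.9 and Trib3 at 36.4 ± 2.62 lay under the limit for testing.

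The 63 tested one-carbon genes had a median SD among the wild-type mice near that of all tested probe sets. They were brighter, with a median wild-type signal of 738.8 against 478.2, and the part of brightness was not tested. Their median SD was 0.155 against 0.154 over all tested probe sets, and 2 of the 63 reached an SD of 0.5, which 389 (2.87%) of all tested probe sets did. These were Folr2, the folate receptor of macrophages, at 125.6, 87.5 and 45 in mice 1, 2 and 3, and Phgdh, the first enzyme of serine synthesis, at 1380, 1006.6 and 611.4. For both genes mouse 1 was highest and mouse 3 lowest. Both other tested probe sets of Phgdh gave the same order, at 884.9, 722.8 and 397.6 and at 183.3, 134 and 98.9, while an untested dim one read 68.4, 73.3 and 86.8. The macrophage list was also highest in mouse 1, with a normalized list mean of 8.834 against 8.54 and 8.47 in mice 2 and 3. As deposited its 16 genes summed to 18807, 13939 and 12795 signal units, sums that carry the higher bright end of array 1. Its part in the Folr2 values was not tested. On these leading probe sets limma found 3 of the 63 genes at an unadjusted p under 0.05 in mutant and 3 in heterozygous against wild-type. The shares over all tested probe sets were 3.87% and 8.01%. At an adjusted p of 0.05 none of the 63 passed limma's test in either genotype, and 3 (0.0221%) and 0 (0.0%) of all tested probe sets did. Over all probe sets of the one-carbon genes the single one that passed was of Shmt1, whose alleles define the genotypes: the probe set at 594.7 ± 43.2 in wild-type read 116.7 ± 3.46 in mutant colons (log2 difference -2.19, SE 0.134, adjusted p = 2.58e-05).

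The most variable genes were found by the SD of normalized log2 signal among the 3 mice. That spread is a description with no test, because it chose the genes. The 100 most variable probe sets had a median SD of 0.826. In the other genotypes, which played no part in the choice, the same 100 had a median SD of 0.4 among heterozygous and 0.473 among mutant mice, and 44 and 46 of them reached an SD of 0.5, against 2.36% and 2.56% of all tested probe sets. In both at once, 29 of the 100 did, against 0.943% of all tested. The 100 were dimmer than the rest, with a median wild-type signal of 252.9 against 478.2 over all tested probe sets. The part of brightness in these shares was not tested.

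**Figure D3:**
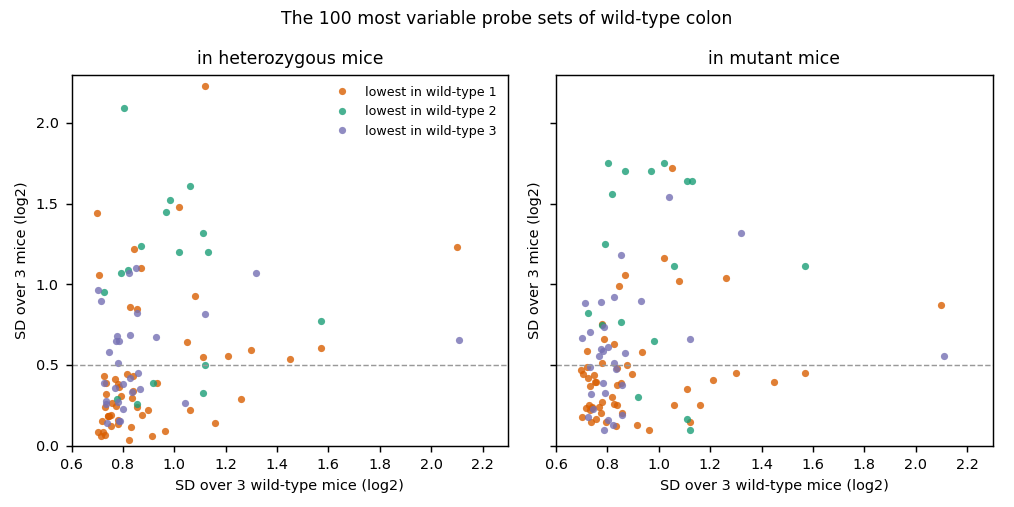
Each point is 1 of the 100 most variable probe sets of wild-type colon, with its SD over 3 wild-type mice on the x axis and its SD over 3 heterozygous (left) or mutant (right) mice on the y axis, in log2 units, coloured by the wild-type mouse that was lowest. Most of those lowest in wild-type 1 lie under the dashed line at 0.5, and most of those lowest in wild-type 2 lie above it.

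Which mouse was lowest divided these probe sets. Wild-type 1 was lowest for 53 of the 100, against 39.2% of all tested probe sets, mouse 2 for 17 and mouse 3 for 30. The 53 had a median SD of 0.309 among heterozygous and 0.394 among mutant mice. The 17 lowest in mouse 2 had medians of 1.09 and 1.11, and the 30 lowest in mouse 3 had 0.481 and 0.563. A gene with several probe sets counts more than once here, such as Ighm and Socs3 among the 17 and Apoa1 among the 53. Of the 100, 47 were higher where the actin ratio was lower in all 3 mice, which 26.8% of all tested probe sets were, and the part of RNA shortening in them was not tested.

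Among the 40 most variable genes, 13 had an SD under 0.5 in both other genotypes, and 10 of these were lowest in wild-type mouse 1. Angel2, a gene of the CCR4 nuclease family, is an example, with 28, 118.9 and 239.5 in mice 1, 2 and 3. Its 3 other tested probe sets varied little, with 389.8, 488.4 and 454 on one of them. Dnm2, the dynamin of endocytosis, likewise had 1 variable probe set at 62.8, 176.4 and 276, while its 6 other tested probe sets all had an SD under 0.5. Of the 10 genes, 8 have 17 other tested probe sets between them, and none of the 8 had another probe set with an SD of 0.5 or more. Usp12, Ulk2, Ro60, Sox9, Nsmf, St3gal4, Nr2c1 and Pank3 were the others. Mice 2 and 3 also differed in several of them, as in Ro60, an RNA-binding protein, at 31.1, 88.9 and 184.4, and Ro60 and St3gal4 have no other tested probe set. Over all 40 genes, 18 have another tested probe set, and in 5 of them another one reached an SD of 0.5.

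By contrast, 17 of the 40 genes had an SD of at least 0.5 in both other genotypes as well. Cyp2e1, a cytochrome P450 that oxidizes ethanol and ketones, had the largest spread, with 1161.7, 828.2 and 70 in wild-type mice 1, 2 and 3. Mouse 3 stood 15.1-fold below mouse 1 on the normalized log2(signal + 16) scale. Its heterozygous values were 937.7, 423.6 and 897.6 and its mutant values 242.1, 352.3 and 170.6, so the value of wild-type mouse 3 lay under all 8 others. The adipocyte list was also lowest in mouse 3, by less, with a normalized list mean of 10.02, 9.869 and 9.758 in mice 1, 2 and 3. As deposited its 12 genes summed to 24754, 19731 and 17132 signal units. Its part in the Cyp2e1 values was not tested.

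Apoa1, the main protein of high density lipoprotein, was second. It read 8.1, 132 and 459.1 in wild-type mice 1, 2 and 3, and its 3 other tested probe sets gave the same order, for example 13.3, 114.8 and 269.2. The value of mouse 1 on the first of these probe sets lay under the highest no-target control. Heterozygous mice read 156.4, 30.5 and 207.2 and mutant mice 100.7, 258.9 and 71.7. Apoc3, another apolipoprotein, did not follow Apoa1: it read 405.3, 98.9 and 304.1 in the wild-type mice. Albumin, a defining liver transcript, read 28, 35.5 and 64.2 under the limit for testing, and Apoa4 of the small intestine 1.7, 4.5 and 31.7. Both lists' part in the Apoa1 values was not tested.

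Defence genes differed between mice in several patterns. Reg3g, a lectin that kills Gram-positive bacteria, read 4586.1, 1425.4 and 890.3 in wild-type mice 1, 2 and 3, and its close relative Reg3b read 9225.4, 5972.1 and 3919.8 in the same order. Lcn2, which withholds iron from bacteria, followed that order at 144.8, 90.5 and 49.8. Socs3, an inhibitor of cytokine signalling, read 480.2, 115 and 158.9 on one probe set and 397.2, 95.9 and 132.3 on the other. Itln1, a lectin of goblet and Paneth cells, had another order, at 160.3, 88.1 and 268.1. The 12 tested genes of mucosal defence included 3 with an SD of 0.5 or more, against 2.87% of all tested probe sets. Of the 12, 5 were highest in mouse 1, a share near the 39.2% of all tested. With each array centred on its median 9 of the 12 were, but so were 7611 of all 13576 tested probe sets.

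T cell and macrophage genes were highest in mouse 1. Cd3e, a chain of the T cell receptor complex, read 1280.6, 766.6 and 222.2 in mice 1, 2 and 3. Gzma, a granzyme of killer cells, read 702.4, 514 and 328.9. All 8 tested T and NK cell genes were highest in mouse 1, as were 12 of 14 macrophage and dendritic cell genes, against 39.2% of all tested probe sets. With each array centred on its median these counts stayed at 8 and 12, and as deposited they were 7 and 9. Of all 13576 tested probe sets, 7611 were highest in mouse 1 when centred and 3977 as deposited. Ccl8, a chemokine, read 1351, 529 and 494.1, and Ccl17, a chemokine of dendritic cells, read 403, 231.9 and 139.8. The spread of Cd3e returned in the other genotypes, with 186.2, 925.8 and 348.8 in heterozygous and 1329.2, 478.9 and 223.1 in mutant mice.

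Smooth muscle genes ran the other way on the normalized scale, with 10 of 14 tested highest in mouse 3 and 3 highest in mouse 1. The shares over all tested probe sets were 37.2% and 39.2%. This direction turned with the scaling: centred on each array's median, 9 were highest in mouse 1 and 5 in mouse 3, and as deposited 7 and 7. The array as a whole shifted too. Of all 13576 tested probe sets, 7611 were highest in mouse 1 and 3918 in mouse 3 when centred, and 3977 and 5748 as deposited. Centring moved the mean of all tested probe sets to 9.149 in mouse 1 against 9.025 and 9.022 in mice 2 and 3. Of the leading probe sets in this list, that of Csrp1 was the most spread, at 1026.3, 1515.9 and 1816.3. A probe set of Tpm2 that is not its leading one spread more, at 74.8, 227 and 84.7 (normalized SD 0.713), highest in mouse 2. Ano1, the channel that marks the pacemaker cells of Cajal, read 210, 372.6 and 523.5.

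**Figure D4:**
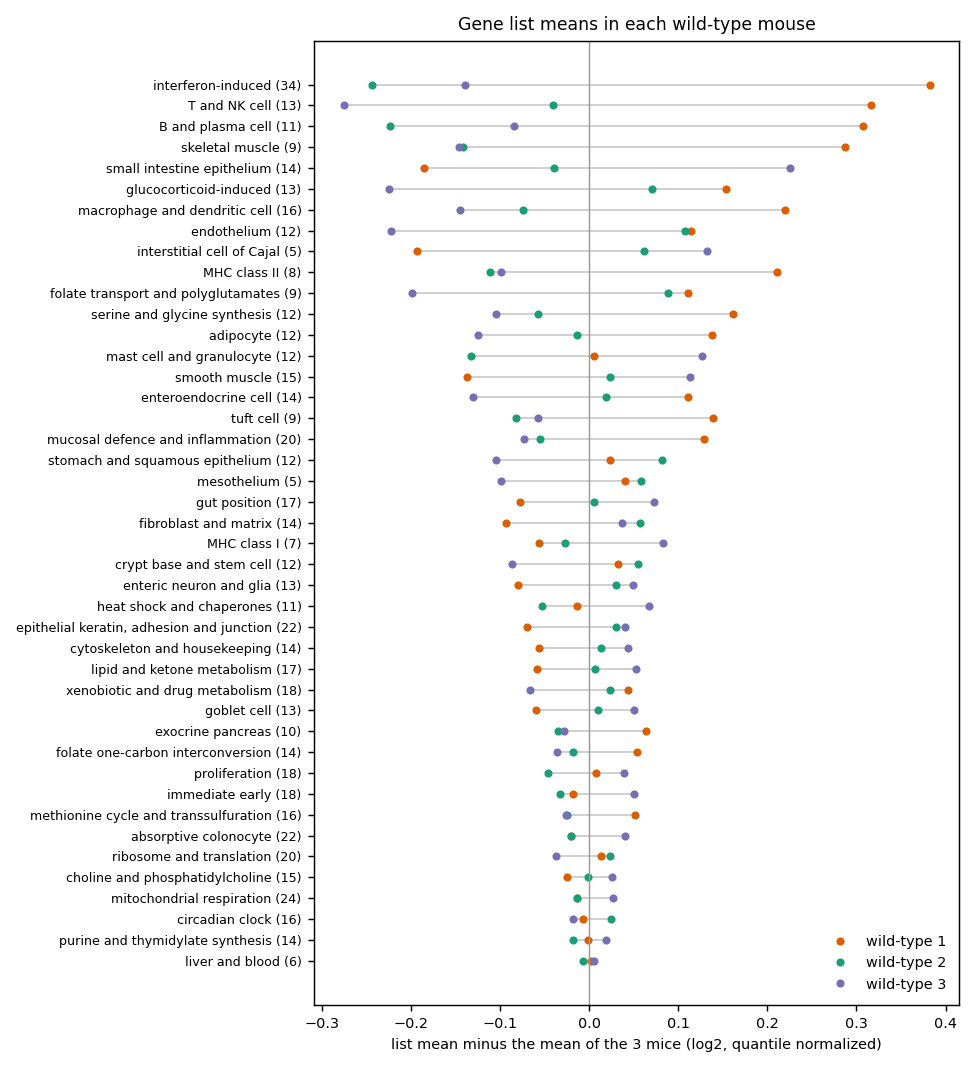
For each gene list (measured genes in brackets) the mean normalized log2 signal of wild-type mice 1, 2 and 3 is shown relative to the mean of the 3, in order of range. The interferon-induced list spans 0.626, with mouse 1 on the right, and the place of the smooth muscle list turns with the scaling.

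Over all measured genes on the normalized scale, the interferon-induced genes had the widest range of list mean of the 43 lists. The T and NK cell list was close, at 0.592. Over tested genes alone the T and NK cell list was wider, with means of 8.902, 8.43 and 7.997 in mice 1, 2 and 3. The interferon-induced means were then 9.6, 8.982 and 9.088. Interferons are secreted on viral or microbial stimulation, and their target genes encode antiviral proteins that are switched on together. The list mean was 9.5, 8.874 and 8.978 in mice 1, 2 and 3, a range of 0.626, so that mouse 1 stood apart and mice 2 and 3 differed by 0.1046. The range was wider still in the other genotypes, 1.84 among heterozygous and 1.43 among mutant mice. Of 33 tested genes, 30 were highest in mouse 1, against 39.2% of all tested probe sets. As deposited 24 of the 33 were, against 3977 of all 13576 tested probe sets. An SD of 0.5 or more was reached by 8 of the 33.

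Promoter sequence of these genes is shown because they moved together. In the RefSeq promoter sequences of GRCm38.p6, the 250 bases before the gene start held the letters GAAANNGAAA, on either strand and with overlapping matches counted, in 14 of the 27 list genes found there (51.9%) and in 936 of 27025 genes in all (3.46%). The letters match the core of the interferon-stimulated response element. A gene with several starts was counted if any of them held a match. Of the 8 interferon-induced genes named here, 7 were found, and Gbp3, Ifit1, Oas1a and Rsad2 held a match. Matches are in capitals, given on the gene's strand, so TTTCNNTTTC is a match on the opposite strand. A match describes letters only.
Ifit1: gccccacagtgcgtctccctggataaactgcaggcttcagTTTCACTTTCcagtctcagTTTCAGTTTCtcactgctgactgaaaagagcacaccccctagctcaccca
Rsad2: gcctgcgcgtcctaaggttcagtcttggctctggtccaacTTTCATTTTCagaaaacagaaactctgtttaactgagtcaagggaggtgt
Oas1a: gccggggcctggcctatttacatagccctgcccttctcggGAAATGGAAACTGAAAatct
Gbp3: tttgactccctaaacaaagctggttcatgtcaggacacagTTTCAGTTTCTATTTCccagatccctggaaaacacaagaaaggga

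Ifit1, which binds viral RNA lacking a host cap, lies just after the window chr19:34640745-34640853 (+ strand) and read 3586.2, 2053.1 and 2265.6 in mice 1, 2 and 3. Rsad2, or viperin, follows chr12:26456523-26456612 (- strand) and read 2115.2, 1302.4 and 1615.3. Oas1a, which makes the messenger that activates RNase L, follows chr5:120907526-120907585 (- strand) and read 2052.7, 1331.6 and 1540.1. In these genes mouse 1 was highest and mouse 2 lowest. Gbp3, a guanylate-binding protein, follows chr3:142559959-142560043 (+ strand) and read 593.9, 281.9 and 332.7.

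Among named genes with no match or no entry, Ifih1, a sensor of double-stranded RNA, read 2829.9, 1651.8 and 1704, and Oasl2 read 2358.5, 1249 and 1277.2. Ifit2 read 847.8, 404.1 and 442.3. Oas2, of the same family as Oas1a, was the only interferon-induced gene among the 40 most variable, at 387.5, 107.6 and 186.3 in the wild-type mice. Its heterozygous values were 7.6, 166.7 and 49.3 and its mutant values 248.7, 34.3 and 16.1, so both other genotypes held mice under the lowest wild-type value. The difference from wild-type did not pass limma's test for any of the 33. Over all 13576 tested probe sets that test called 3 (0.0221%) in mutant and 0 (0.0%) in heterozygous colons, so this does not set the list apart.

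**Figure D5:**
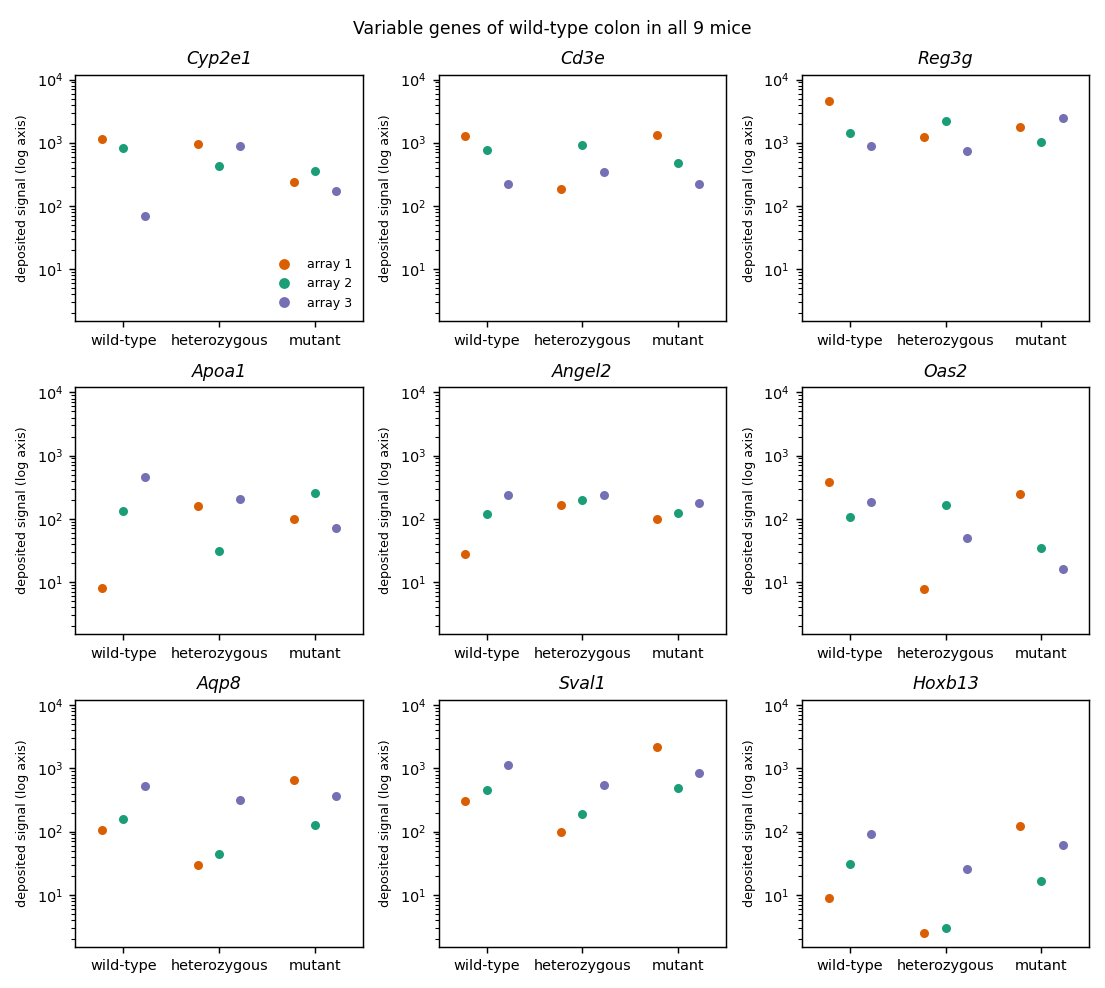
Deposited signal (log axis) of 9 variable genes in each of the 9 mice, grouped by genotype on the x axis and coloured by array number. Angel2 is low in wild-type 1 alone, while Aqp8 and Sval1 share their order of mice in all 3 genotypes, and Hoxb13 is at background in 3 mice.

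A last set of variable genes shared their order of mice with one another in every genotype. Aqp8, the water channel of colonocytes, read 107.7, 158.2 and 526.1 in wild-type mice 1, 2 and 3, then 30, 44.8 and 311.1 in heterozygous and 645.8, 125.6 and 371.1 in mutant mice. Sval1, a gene related to the seminal vesicle antigen, read 306.1, 454.3 and 1119.5, then 98.2, 188.6 and 553.4, and then 2186.1, 495.1 and 841.7. Both genes were lowest in mouse 1 and highest in mouse 3 in wild-type and heterozygous colons, where the actin ratio was highest in mouse 1 and lowest in mouse 3. In mutant colons both were highest in mouse 1, which again had the highest ratio of its group, at 4.84. The part of RNA shortening in these values was not tested.

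Other genes with a like order were picked out after their values were seen. Hoxb13, a homeobox gene known for its place at the hind end of the gut, was dim and untested, with 9, 30.4 and 90 in wild-type, 2.5, 3 and 25.6 in heterozygous and 124, 16.6 and 61 in mutant mice. Its values in wild-type mouse 1 and in heterozygous mice 1 and 2 lay under the highest no-target control of 9.9, so heterozygous mice 1 and 2 have no order. Hoxb13 is in a list of gut position genes. Over its 17 measured genes the normalized means were 8.252, 8.335 and 8.402 in wild-type mice 1, 2 and 3. Over the 11 tested genes they were 9.946, 9.958 and 9.944, with 3, 5 and 3 genes highest in mice 1, 2 and 3. Hoxa11os, an RNA antisense to another posterior homeobox gene, read 299.7, 491 and 917.8, then 76.4, 238.3 and 736.2, and then 801.4, 435.4 and 630.7. The strand that its probes read was not checked, nor whether Hoxa11 adds to its signal. Aqp4, a second water channel, read 1634, 1659.8 and 2824.4, then 482, 669.5 and 1997.8, and then 3350, 1515.2 and 2286.4. On the normalized scale 129 of the 13576 tested probe sets (0.95%) had this order in all 3 genotypes. Of these, 3 also had an SD of 0.5 or more in each genotype: Aqp8, Sval1 and Angptl7, a secreted angiopoietin-like protein. Mptx1 had the order of Aqp8 in wild-type mice, at 576.1, 796.6 and 1852.6, and in heterozygous mice, at 537.9, 769.1 and 1792.9. It did not have it in mutant mice, at 801.6, 1761.5 and 1858. The labels say only that tissue came from the proximal part of the colon, and the position of each piece along it is not given.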

How the data were processed

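The values deposited by the authors are linear intensities, 1 per probe set and array. Per the submitters' processing notes GCOS, the Affymetrix operating software, was used; its version is not given in the sources used here. Per the labels, about 50 ng of RNA from each sample were amplified and biotin-labelled. The trimmed mean signal was 500.1 to 500.2 in every array. Intensities plus 16 were converted to log2 and quantile normalized over 9 arrays, without the 64 controls. The 13576 of 22626 probe sets whose mean reached the 40th percentile (77.1 signal units) were tested with limma 3.58.1 (R 4.3.3, lmFit, eBayes with trend, Benjamini-Hochberg), tested on simulated data first. Folds understate changes of dim probe sets. Gene names came from the platform annotation (20380 probe sets with 1 symbol, 691 with several, 1555 with none), and 593 of 705 listed genes were measured, 10 through a synonym. Named were the 40 brightest and 40 most variable genes, the one-carbon genes, and per other list up to 5 bright and 3 variable genes. The members, 43 lists and rules were chosen with earlier results of these data known. Labels call the samples biological replicates.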

Additional observations from a re-analysis of the deposited data

How the results depend on the processing

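The number of probe sets with an SD of at least 0.5 among the wild-type mice was 389, and 656 as deposited, 187 with a pseudocount of 64, 639 without the filter on dim probe sets and 186 with a filter at the 60th percentile. Leaving out 1 wild-type mouse gave 266 (without mouse 1) to 992 (without mouse 2). The median SD of 0.1537 became 0.1942 when each array was centred on its median, and 0.1013 to 0.1631 without 1 mouse. The 100 most variable probe sets kept 49 members without mouse 1, 79 without mouse 2 and 58 without mouse 3, and 80 as deposited. Their median SD among heterozygous mice was 0.4397 without the filter, 0.3551 when chosen by the coefficient of variation and 0.3367 to 0.4139 without 1 wild-type mouse. Among mutant mice it was 0.5127 and 0.3762 with pseudocounts of 1 and 64, 0.4087 at the 60th percentile, 0.402 by the coefficient of variation and 0.3709 to 0.4487 without 1 wild-type mouse. Of the 40 variable genes, 22 kept an SD of at least 0.5 without mouse 1. The range of the interferon-induced list was 0.1046 without mouse 1 and at most 0.6258 without another. Limma called 2 to 3 probe sets in mutant against wild-type without 1 array and 9 without the 3 arrays numbered 1, and in heterozygous against wild-type 3 without heterozygous mouse 3 and otherwise 0. The overlaps of the brightest probe sets and the count of one-carbon genes above the median stayed within 1.5 times under every alternative run. The cause of these shifts was not tested.

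Samples with the same replicate number did not all deviate together. Their correlations ran from -0.05964 to 0.4629, with 0.2184 to 0.4629 among those numbered 3, and not every sample correlated best with its own number. The numbers were therefore not used as pairs, although the actin ratio is highest in the array numbered 1 and lowest in the one numbered 3 in every genotype, and a shared handling by number was not tested. With the replicate number as a block limma called 5 probe sets in mutant and 0 in heterozygous against wild-type.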

Other observations

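Clock genes lay above the median of all probe sets in 14 of 16 cases in the wild-type colons, read at leading probe sets, a choice that raises such counts. Their median SD was 0.229 among the 3 mice, against 0.154 over all tested probe sets, and 2 of 15 tested genes had an SD of 0.5 or more, against 2.87% of all tested. The list mean moved by 0.0417, since some members were highest where others were lowest. Dbp, a clock output factor, read 2050.3, 2098.6 and 1849.9 in mice 1, 2 and 3. Per3, a period gene, read 1462.4, 2218 and 1100.7, highest in mouse 2, while Nfil3, a repressor of the opposite phase, read 325.1, 157 and 179.6 and Arntl, the core activator, 177.2, 104.3 and 192.8, both lowest in mouse 2. The time of day at which each colon was taken is not in the labels.

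Genes that glucocorticoids induce had a list mean of 9.474, 9.391 and 9.095 in mice 1, 2 and 3, and 3 of 11 tested genes reached an SD of 0.5, against 2.87% of all tested probe sets. Zbtb16, a zinc finger factor, read 281.9, 325.7 and 97.6, Lcn2 as in the account of defence genes, and Angptl4, an inhibitor of lipoprotein lipase, 185.5, 169.3 and 100.6. All 3 were lowest in mouse 3. In the other genotypes Zbtb16 read 861.8, 356.5 and 632 in heterozygous and 370.7, 313.5 and 123.8 in mutant mice.

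Genes of lipid and ketone metabolism were bright, with a median signal of 1537 over 17 genes and 1 of 16 tested with an SD of 0.5 or more, against 2.87% of all tested probe sets. Scd1, a fatty acid desaturase, read 5849 ± 1190 and Hmgcs1, which makes a cholesterol precursor, 4959 ± 1280. The spread gene was Fdps, an enzyme further along the cholesterol route, at 194.4, 369.5 and 479.8. Cdh17, the liver-intestine cadherin, stood out in the list of epithelial junction genes as the only one of 21 tested with an SD of 0.5 or more, at 1244.8, 3264.6 and 2697.6. The mouse 1 value was the lowest of the 9 mice, whose other values ran from 1673.3 in a heterozygous mouse to 3304.4 in a mutant mouse.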
